A study of Sus scrofa with 36 samples.

Results

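The genes B2M, SLA-2, SLA-3 and TAP1, which build and load major histocompatibility complex class I molecules, were examined in the hippocampus of 36 male piglets of a Landrace × Large White cross on Affymetrix porcine arrays. They were represented by every probe set that the array annotation ties to exactly 1 of these symbols, which gave 14 probe sets of 23999: 9 for B2M, 1 for SLA-2, 1 for SLA-3 and 3 for TAP1. A further 3 probe sets carried a member symbol together with other symbols and were kept apart. The piglets were bought at 3 days of age, placed at random in 3 feeding groups of 12, and sampled at postnatal day 38. Control piglets received pig milk replacer with its basal lactoferrin. The medium-dose and high-dose piglets received the replacer with 0.6 and 1.2 g/L lactoferrin. A set code from S1 to S5 is written in each sample description and is not explained there. The codes hold 4, 10, 8, 9 and 5 arrays, and S1 holds no medium-dose array. Each array is labelled as a numbered replicate of its group, and the p-values measure the spread between these samples.

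A class I molecule is a heavy chain (in pigs the swine leukocyte antigens, SLA) bound to beta-2 microglobulin and a short peptide, and it shows peptides from inside the cell to cytotoxic T cells. The proteasome cuts the peptides, the transporter made of TAP1 and TAP2 carries them into the endoplasmic reticulum, and tapasin and its partners help load them. Interferons raise the transcription of most of these genes. In the brain, microglia and endothelial cells are among the cells known to make class I molecules, and work in mice has tied neuronal class I molecules to the refinement of synapses. The arrays measured the whole tissue, so fewer cells of a type and less RNA per cell cannot be told apart.

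All 14 probe sets were among the 18006 whose mean reached the 25th percentile, a log2 value of 4.92. Array medians lay between 6.6 and 6.7, and each array correlated with the rest at a mean of 0.980 or more (median 0.991). No 2 arrays held identical values. A polyadenylated control transcript, Dap, was not above a log2 value of 6 on 3 control, 3 medium-dose and 4 high-dose arrays. Neuronal transcripts were detected: the synaptic gene SNAP25 averaged 12.92 and the neuronal gene STMN2 averaged 12.76. The granule-cell markers PROX1 and ZBTB20 had no probe set with a symbol. Levels are RMA values on the log2 scale. Brightness differs between probe sets for reasons of probe binding as well as of transcript level, so it was used to choose a probe set per gene and not to compare transcripts.

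Beta-2 microglobulin, the light chain shared by all class I molecules, was followed first through its brightest probe set, Ssc.12348.1.S1_at. The choice was a near tie, with a mean of 12.36 over all arrays against 12.28 for Ssc.5896.1.S1_at. The latter was the brighter in S1, S2 and S3 and in medium-dose piglets, and Ssc.12348.1.S1_at in S4 and S5. The choice thus rested on the arrays where Ssc.12348.1.S1_at was high. The log2 level of Ssc.12348.1.S1_at ran from 12.0 to 13.7 with a median of 12.3 in control piglets. In medium-dose piglets it ran from 11.6 to 12.9 with a median of 12.05, and in high-dose piglets from 11.7 to 13.4 with a median of 12.3. The 3 ranges overlapped, and the upper ends of the control and high-dose groups lay above that of the medium-dose group.

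SLA-2, a classical class I heavy chain, was measured by Ssc.13780.5.S1_x_at. Its levels ran from 9.6 to 11.4 (median 10) in control piglets, from 9.3 to 10.1 (median 9.8) in medium-dose piglets and from 9.3 to 11 (median 9.8) in high-dose piglets. No medium-dose array exceeded 10.1, while the other groups reached 11 or more. SLA-3, another classical heavy chain, was measured by Ssc.13780.9.S1_a_at and ran from 8.6 to 11 (median 9.1) in control, from 8.3 to 9.5 (median 8.7) in medium-dose and from 8.5 to 10.3 (median 8.95) in high-dose piglets. SLA heavy chains are close in sequence, and the x in a probe set name marks probes that may bind related transcripts. The SLA-2 and SLA-3 values may therefore include signal from each other or from other SLA genes.

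TAP1, a subunit of the peptide transporter, was brightest on Ssc.27863.1.S1_at. Its levels ran from 7.8 to 9.4 (median 8.0) in control, from 7.6 to 8.6 (median 7.9) in medium-dose and from 7.3 to 9.1 (median 7.9) in high-dose piglets. The 3 groups overlapped, and the medium-dose arrays ended lowest.

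**Figure D1:**
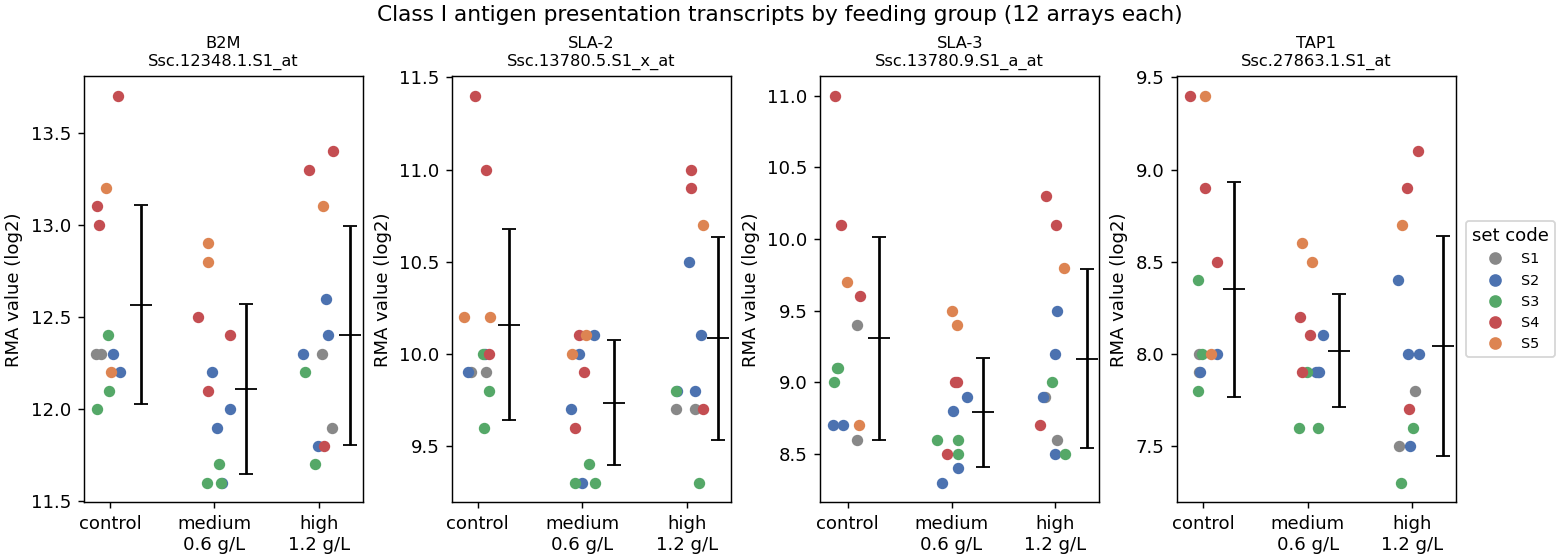
RMA values (log2) of the brightest probe set of each gene in control, medium-dose and high-dose piglets, 12 arrays each, coloured by set code, with the mean and SD in black. The medium-dose arrays of B2M end at 12.9, below the top control array at 13.7 and the top high-dose array at 13.4, and the groups overlap in all 4 genes.

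Medium-dose piglets were compared with controls by limma with the set code as a block and Benjamini-Hochberg adjustment over all 18006 probe sets. None of the 14 probe sets passed an adjusted p of 0.05, and 0% of all tested probe sets did. At an unadjusted p under 0.05 there were 5 of 14, all with lower means in the medium-dose group, where 6.93% of all tested probe sets reached that level in either direction and 3.15% with lower means. These 5 were the brightest probe set of each gene and a further B2M probe set. They rose and fell together across arrays (Pearson r of 0.68 to 0.95), so they are not 5 separate results. The genes and lists were chosen with earlier results of these data known. Here and below, their counts are therefore a description and not a test against the background. Below 0 lay 10 of the 14 differences, against 49.7% of all tested probe sets. The median of the 14 was -0.06, that of all tested probe sets 0.00.

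B2M (Ssc.12348.1.S1_at) averaged 12.11 ± 0.46 in medium-dose piglets and 12.57 ± 0.54 in controls (SD, n = 12 each). The fitted log2 difference was -0.48 ± 0.15 (SE), a ratio of 0.719, with a 95% interval of -0.78 to -0.17 and an adjusted limma p of 0.54. Below the control median lay 8 of 12 medium-dose arrays.

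SLA-2 averaged 9.73 ± 0.34 in medium-dose piglets and 10.16 ± 0.52 in controls (SD, n = 12 each), a fitted log2 difference of -0.48 ± 0.15 (SE) with an adjusted limma p of 0.54. SLA-3 averaged 8.79 ± 0.38 in medium-dose piglets and 9.31 ± 0.71 in controls, a fitted difference of -0.54 ± 0.19 (SE) with an adjusted limma p of 0.594, and 10 of 12 medium-dose arrays lay below its control median. For TAP1 the means were 8.02 ± 0.31 in medium-dose piglets and 8.35 ± 0.58 in controls, with a fitted difference of -0.38 ± 0.15 (SE) and an adjusted limma p of 0.64. The second B2M probe set, Ssc.12348.2.S1_at, averaged 9.84 ± 0.43 in medium-dose piglets and 10.22 ± 0.60 in controls, and its difference of -0.39 ± 0.16 (SE) had an adjusted limma p of 0.659. None of these 5 differences passed the threshold.

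The medium-dose difference was not even across set codes. Taking S2, S3, S4 and S5 in turn, B2M had -0.33, -0.53, -0.93 and 0.15. SLA-3 had -0.10, -0.50, -1.40 and 0.25 in the same codes. SLA-2 gave -0.18, -0.47, -0.93 and -0.15, and TAP1 gave 0.00, -0.37, -0.87 and -0.15. Thus S4 held the widest gap for each of the 4 genes. Without the S4 arrays the fitted differences were -0.31 for B2M, -0.31 for SLA-2, -0.22 for SLA-3 and -0.20 for TAP1, each with an adjusted limma p of 0.951.

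High-dose piglets were compared with the same controls. None of the 14 probe sets passed, and 0% of all tested probe sets did. Below 0 lay 8 of the 14 differences, against 50.3% of all tested probe sets. B2M averaged 12.40 ± 0.59 in high-dose piglets and 12.57 ± 0.54 in controls (SD, n = 12 each), a fitted difference of -0.13 with a 95% interval of -0.43 to 0.17. Leaving out high-dose replicate 9 gave -0.02, and leaving out control replicate 12 gave -0.21. SLA-2 (-0.08) and SLA-3 (-0.09) differed by less than their standard errors of 0.14 and 0.19. TAP1 averaged 8.04 ± 0.60 in high-dose piglets and 8.35 ± 0.58 in controls, a difference of -0.28 with an interval of -0.58 to 0.03. At an unadjusted p under 0.05 there was 1 of 14, against 4.94% of all tested probe sets in either direction and 2.77% above 0. It was the dim TAP1 probe set Ssc.23546.2.A1_at at 0.13 ± 0.06 (SE), with an adjusted limma p of 0.976.

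High-dose and medium-dose piglets were also compared directly, and again none of the 14 passed, with 0% of all tested probe sets. The fitted differences were 0.35 ± 0.15 for B2M, 0.39 ± 0.15 for SLA-2, 0.44 ± 0.19 for SLA-3 and 0.10 ± 0.15 for TAP1 (SE). Within set codes the high-dose mean of B2M lay above the medium-dose mean in all 4 codes that hold both groups, by 0.35, 0.32, 0.50 and 0.25 for S2 to S5. At an unadjusted p under 0.05 there were 4 of 14, against 5.98% of all tested probe sets. B2M, SLA-2 and SLA-3 lay above 0, where 2.48% of all tested probe sets did, and the B2M probe set Ssc.8925.1.S1_at lay below 0, where 3.49% did. The difference of Ssc.8925.1.S1_at was -0.63, and -0.25 without high-dose replicate 12. Each of the 4 had an adjusted limma p of 0.811 with all arrays in the fit. Below 0 lay 5 of the 14 differences, against 49.7% of all tested probe sets. The medium-dose arrays enter this contrast and the one against controls, so the 2 are not independent.

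**Figure D2:**
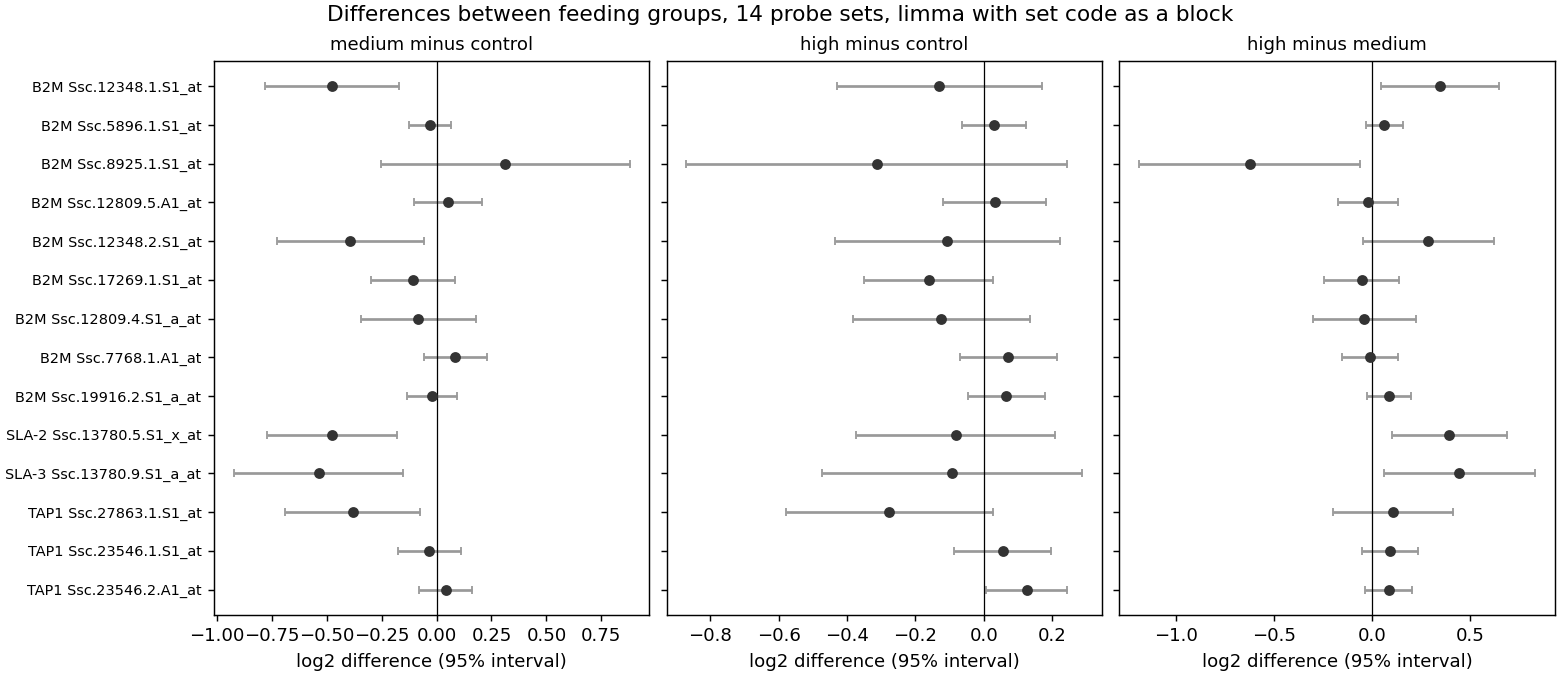
Log2 differences between feeding groups with 95% intervals for all 14 probe sets, from limma with set code as a block, in 3 panels (medium minus control, high minus control, high minus medium). In the left panel 5 intervals lie wholly below 0, but no difference passed after adjustment over 18006 probe sets.

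Levels of 6 of the 14 probe sets differed between set codes. In an F test over the 5 set codes, with the feeding group in the model, these 6 passed an adjusted p of 0.05, against 2.62% of all tested probe sets. At an unadjusted p under 0.05 there were 8 of 14, against 17.4%. The genes were chosen with earlier results known and most of the 6 rose and fell together, so these shares describe and do not test. The 6 were the brightest probe sets of B2M (F = 10.5, adjusted limma p = 0.0111), TAP1 (F = 8.65, adjusted p = 0.0153), SLA-2 (F = 7.73, adjusted p = 0.0203) and SLA-3 (F = 5.75, adjusted p = 0.0486), and the B2M probe sets Ssc.12348.2.S1_at and Ssc.8925.1.S1_at.

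B2M levels in S1 were 11.9 and 12.3 in high-dose piglets and 12.3 and 12.3 in control piglets. S3 had the lowest mean, 11.91 ± 0.30 (SD, n = 8), followed by S2 at 12.13 ± 0.30 (n = 10) and S1 at 12.20 ± 0.20 (n = 4). S4, at 12.81 ± 0.64 (n = 9), and S5, at 12.84 ± 0.39 (n = 5), stood above them. S4 and S5 did not differ beyond their spread, and neither did S1 and S2.

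S4 was also the most scattered code. Its control arrays had B2M levels of 13.0, 13.7 and 13.1, its medium-dose arrays 12.1, 12.5 and 12.4, and its high-dose arrays 11.8, 13.4 and 13.3. TAP1 in the same arrays was 9.4, 8.9 and 8.5 in control, 7.9, 8.2 and 8.1 in medium-dose and 7.7, 9.1 and 8.9 in high-dose piglets. In both genes every S4 medium-dose array lay below every S4 control array, while high-dose replicate 9 was lower still.

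In S5 the control arrays had B2M levels of 13.2 and 12.2, the medium-dose arrays 12.9 and 12.8, and the high-dose array 13.1. The 7 arrays with B2M at 13.0 or above comprised 3 high-dose and 4 control arrays, 5 of them in S4 and 2 in S5. For SLA-3 the 7 highest arrays, at 9.6 or above, split in the same numbers.

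From S1 to S5, mean levels of SLA-2 were 9.80, 9.92, 9.56, 10.40 and 10.24. Those of TAP1 were 7.80, 7.96, 7.78, 8.52 and 8.64, again with S4 and S5 on top. SLA-3 ran 8.88, 8.79, 8.80, 9.59 and 9.42. On its brightest probe set, every one of the 4 genes thus had its higher means in S4 and S5. This did not hold for all B2M probe sets. Ssc.8925.1.S1_at, also among the 6 that passed, had its highest mean in S1 (12.3) and its lowest in S5 (10.4), where 1 array had 7.4. The set-code means of Ssc.5896.1.S1_at lay between 12.25 and 12.32.

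The set-code calls changed when some whole set codes were left out, and those of SLA-3 and Ssc.8925.1.S1_at also with single arrays. Without the S3 arrays none of the 14 passed, without S1 1 passed, and on the arrays with the Dap control none passed, where 196, 58 and 0 of all tested probe sets passed. SLA-3 no longer passed in 30 of the 36 fits that each left out 1 array, and Ssc.8925.1.S1_at in 15. The other 4 passed in all 36.

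**Figure D3:**
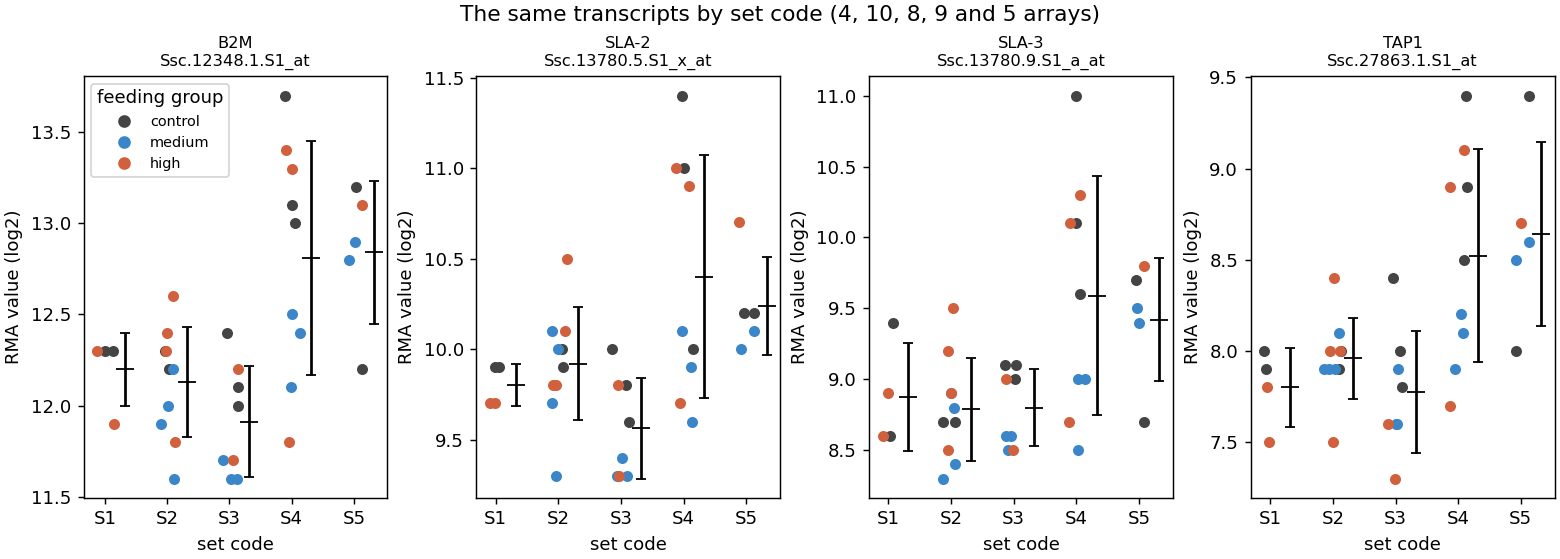
RMA values (log2) of the same 4 probe sets by set code, with arrays coloured by feeding group and the mean and SD in black. S4 and S5 have the higher means on each of these probe sets, and the S4 arrays spread from 11.8 to 13.7 for B2M.

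Whether feeding acted differently by set code was tested with an interaction term. Of the 14 probe sets 1 passed, Ssc.8925.1.S1_at (F = 10.9, adjusted limma p = 0.0361), against 0.0167% of all tested probe sets. Its levels ran from 10.6 to 12.6 on 35 arrays, and high-dose replicate 12, the only high-dose array of S5, had 7.4. Without S5 the F was 1.59, with an adjusted limma p of 0.703. The same array had a B2M level of 13.1 on Ssc.12348.1.S1_at, near the top of its range.

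The 9 B2M probe sets did not follow a single profile. Ssc.12348.1.S1_at and Ssc.12348.2.S1_at rose and fell together across the 36 arrays (Pearson r = 0.95). The other 7 correlated with the first at -0.40 to 0.25. The SD of Ssc.12348.1.S1_at, 0.55, exceeded that of 99.0% of tested probe sets, while Ssc.5896.1.S1_at, with a mean of 12.28, had an SD of 0.097 and exceeded 2.97%. The median SD of tested probe sets was 0.175.

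Ssc.5896.1.S1_at ran from 12.0 to 12.4 in control, from 12.1 to 12.4 in medium-dose and from 12.1 to 12.4 in high-dose piglets. Its fitted medium-minus-control difference was -0.03 ± 0.05 (SE). The other annotated B2M probe sets outside that correlated pair gave medium-minus-control differences of -0.11 to 0.31, none at an unadjusted p under 0.05. The reference annotation lists B2M under 2 gene IDs on chromosome 1, and the array annotation ties the probe sets to 1 of them. SLA-2, SLA-3 and TAP1 lie on chromosome 7.

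TAP1 showed a similar split. Ssc.23546.1.S1_at correlated with the brightest TAP1 probe set at 0.34 and Ssc.23546.2.A1_at at -0.16. Their medium-minus-control differences were -0.03 ± 0.07 and 0.04 ± 0.06 (SE). Their means were 6.54 and 5.29, and neither passed the test over set codes. Statements on B2M and TAP1 therefore hold for the probe sets named.

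**Figure D4:**
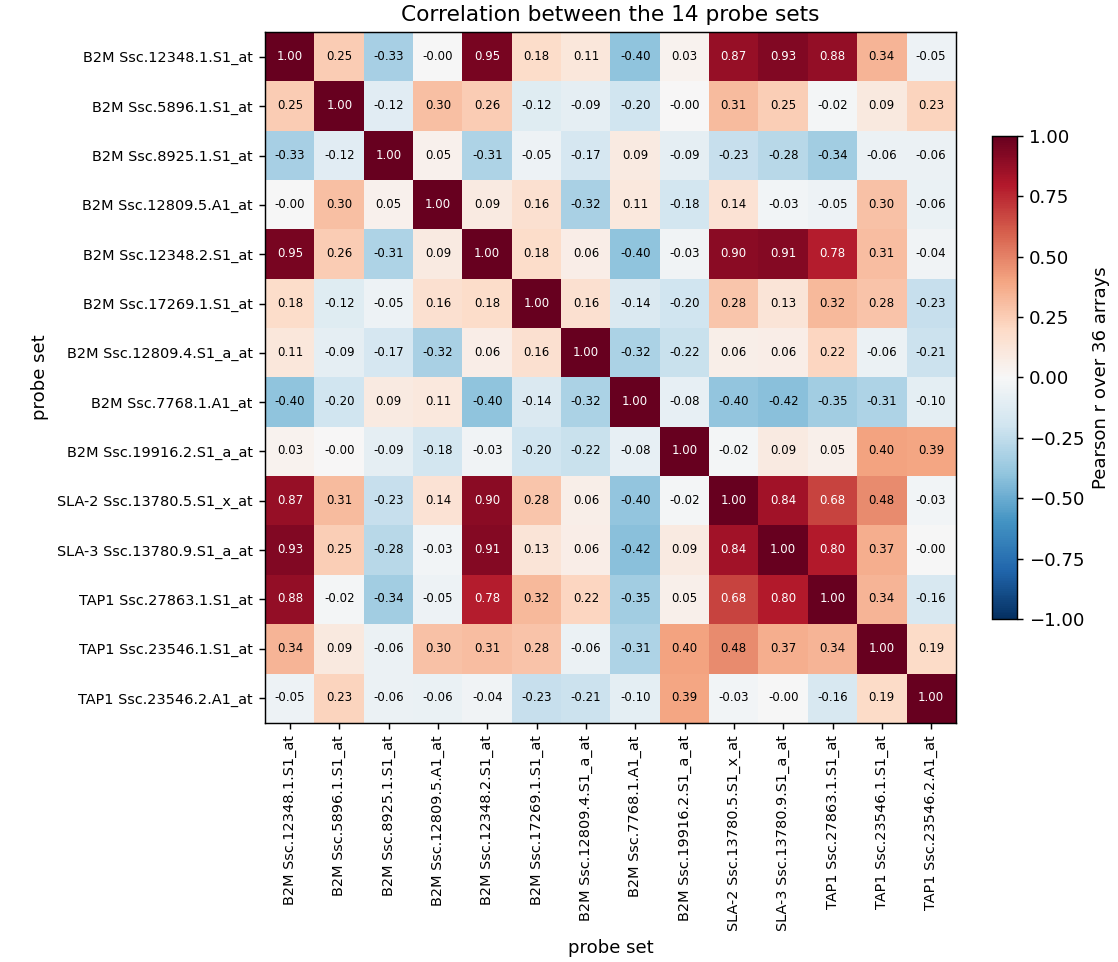
Pearson correlations over 36 arrays between the 14 probe sets. The B2M probe sets Ssc.12348.1.S1_at and Ssc.12348.2.S1_at, SLA-2, SLA-3 and Ssc.27863.1.S1_at of TAP1 form a block of positive values from 0.68 to 0.95, and the remaining B2M and TAP1 probe sets stand outside it.

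Across arrays, the brightest probe sets of the 4 genes moved together. B2M correlated with SLA-3 at r = 0.93 (Spearman 0.89), with TAP1 at 0.88 (0.86) and with SLA-2 at 0.87 (0.83). SLA-2 and SLA-3 correlated at 0.84 (0.70), SLA-3 and TAP1 at 0.80 (0.81), and SLA-2 and TAP1 at 0.68 (0.77). Among the 22 relations computed, the adjusted permutation p was 1.6e-05 for the first 5 of these, whose raw p of 1e-05 is the smallest that 100000 resamples can give, and 7.3e-05 for SLA-2 with TAP1. The Spearman permutation p was 1e-05 for each pair. Leaving out the 2 arrays farthest from the median gave 0.66 to 0.91.

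After the group and set code were taken out, the residual correlations were 0.90 for B2M with SLA-3, 0.77 with TAP1 and 0.74 with SLA-2. The pair SLA-2 and TAP1 had 0.40. Within single set codes B2M and SLA-3 held at 0.87 in S2, 0.93 in S3 and 0.96 in S4 (permutation p of 0.00099, 0.0099 and 0.00017). SLA-2 and TAP1 had 0.17 in S2, 0.64 in S3 and 0.60 in S4, with permutation p of 0.62, 0.091 and 0.089. The link between SLA-2 and TAP1 therefore did not hold within every set code.

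The genes whose profiles were most like each member were taken among 6030 genes, as Pearson r over the 36 arrays. For B2M they were LOC733579 (0.94), GNG11 (0.91), ISG15 (0.89), IFI44L (0.89) and ISG12(A) (0.89). ISG15 is a ubiquitin-like modifier and IFI44L an interferon-induced gene. For TAP1 they were MX1, IFIT1, ISG15, PARP9 and XAF1, at 0.90 to 0.89. MX1 and IFIT1 are antiviral effectors induced by interferon.

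For SLA-3 the most similar genes were CLIC2, LOC733579, UBD, SLA-DRA and SLA-DQA1, at 0.89 to 0.87. UBD is a ubiquitin-like protein, and SLA-DRA and SLA-DQA1 are class II chains, which present peptides to helper T cells. For SLA-2 they were LOC100513601, ISG12(A), SERPING1, C1R and C4H1orf54, at 0.85 to 0.79. The LOC100513601 probe set, Ssc.13780.1.S1_x_at, shares the number 13780 and the x mark with the SLA-2 probe set, Ssc.13780.5.S1_x_at. Its likeness may therefore come from signal of the same or related transcripts. SERPING1 inhibits the complement protease C1R.

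Genes of the rest of the class I pathway were then examined, 1 probe set each. None passed an adjusted p of 0.05 in any contrast. Of 4 measured genes of the immunoproteasome and its activator, all 4 medium-minus-control differences lay below 0, against 49.7% of all tested probe sets. Their median was -0.25, that of all tested probe sets 0.00. An unadjusted p under 0.05 was reached by 2 of the 4, against 6.93%. The activator subunits PSME2 (-0.36 ± 0.10) and PSME1 (-0.29 ± 0.08) were below an unadjusted p of 0.05, with adjusted limma p of 0.515. The catalytic subunits PSMB10 (-0.21 ± 0.10) and PSMB8 (-0.12 ± 0.11, all SE) were not. In high-dose piglets against controls PSME1 had -0.20 ± 0.08, with an adjusted limma p of 0.976.

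Of 7 peptide-loading genes, 6 had differences below 0 in medium-dose piglets against controls, with a median of -0.04, and 1 had an unadjusted p under 0.05, against 49.7% and 6.93% of all tested probe sets. That gene was TAPBP, which encodes tapasin (-0.22 ± 0.08, adjusted limma p = 0.594). The chaperone CANX (-0.10), the translocon subunit SEC61A1 (-0.09) and BCAP31 (0.06) had the next smallest p.

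Of the other class I heavy chains and related genes, 5 were measured and none had an unadjusted p under 0.05. FCGRT, the neonatal Fc receptor heavy chain, had -0.10 in medium-dose piglets against controls, and the non-classical heavy chains SLA-8, SLA-7 and SLA-6 had -0.21, -0.11 and -0.11. A probe set annotated to SLA-2 and SLA-3 jointly, Ssc.13780.4.S1_x_at, had -0.53 ± 0.16 (SE) in that contrast, with an adjusted limma p of 0.54. The other 2 probe sets share SLA-2 with further symbols. Ssc.13780.10.S1_x_at had -0.45 ± 0.17 and Ssc.13780.10.A1_at had 0.10 ± 0.06 (SE). In high-dose piglets against controls Ssc.13780.10.A1_at had 0.22 ± 0.06 (SE), with an unadjusted p of 0.0011 and an adjusted limma p of 0.976.

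Of 15 measured regulators of class I transcription, 12 lay below 0 in medium-dose piglets against controls (median -0.06), against 49.7% of all tested probe sets. An unadjusted p under 0.05 was reached by 2 of the 15, against 6.93%, a share near the background. These were the transcription factors IRF8 (-0.19 ± 0.08, adjusted limma p = 0.642) and IRF1 (-0.45 ± 0.20, SE, adjusted limma p = 0.669). The interferon receptor subunits IFNGR1 (-0.15) and IFNAR2 (-0.11) followed. NLRC5, the transactivator of class I genes, had no probe set with a symbol.

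Over set codes, with 2.62% of all tested probe sets passing, 3 of the 4 immunoproteasome and activator genes passed: PSMB8 (adjusted limma p = 0.0155), PSME1 (0.0155) and PSME2 (0.0316). Of 15 regulators of class I transcription 1 passed, IRF9 (0.0266), a subunit of the interferon-activated factor ISGF3. Of 5 other class I and related genes 1 passed, SLA-6 (0.0373). Of the 7 peptide-loading genes none passed, and 3 had an unadjusted p under 0.05, against 17.4% of all tested probe sets.

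Antiviral interferon-stimulated genes were set beside the class I genes. Of 14 measured, all 14 medium-minus-control differences lay below 0 with a median of -0.50, while 49.7% of all tested probe sets lay below 0. Of the 14, 10 had an unadjusted p under 0.05, against 6.93% of all tested probe sets, and none passed after adjustment. Over set codes 11 of 14 passed, against 2.62%. The mean of these 14 genes per array ran from 6.86 to 9.06 in control, from 6.61 to 8.46 in medium-dose and from 6.74 to 8.83 in high-dose piglets. It correlated with TAP1 at r = 0.90 (Spearman 0.72), with B2M at 0.87 (0.84), with SLA-3 at 0.81 (0.80) and with SLA-2 at 0.65 (0.55), each with an adjusted permutation p of 0.00015 or 1.6e-05. For these relations and those between the class I genes, the permutation moved arrays across set codes. Such p therefore include differences that both sides share between codes. Within S2, S3 and S4 the r was 0.48, 0.62 and 0.98 for TAP1 and 0.77, 0.55 and 0.84 for B2M. It was 0.57, 0.67 and 0.75 for SLA-3 and 0.20, 0.69 and 0.63 for SLA-2. Only B2M in S2 and TAP1, B2M and SLA-3 in S4 had an unadjusted permutation p under 0.05. For TAP1 in S2 it was 0.18.

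Markers of other cells were set beside these values. Of 18 microglia markers 8 were tested, and all 8 medium-minus-control differences lay below 0 (median -0.20), against 49.7% of all tested probe sets. An unadjusted p under 0.05 was reached by 3 of them, against 6.93%. Their mean per array ran from 7.86 to 8.89 in control, from 7.66 to 8.40 in medium-dose and from 7.80 to 8.18 in high-dose piglets. It correlated with SLA-2 at 0.72, with B2M at 0.71, with SLA-3 at 0.68 and with TAP1 at 0.49. Within S2, S3 and S4 the r was 0.71, 0.62 and 0.66 for B2M, 0.37, 0.52 and 0.83 for SLA-2, 0.37, 0.64 and 0.79 for SLA-3 and 0.31, 0.51 and 0.25 for TAP1. Of these 12 values, B2M in S2 and in S4, SLA-2 in S4 and SLA-3 in S4 had an unadjusted permutation p under 0.05. Without the 2 arrays farthest from the median of the gene, the r over all codes was 0.66 for B2M, 0.53 for SLA-2, 0.53 for SLA-3 and 0.65 for TAP1. In high-dose piglets against controls the 8 microglia markers also lay below 0 (median -0.20), against 50.3% of all tested probe sets, and B2M had -0.13. The part of microglia in the class I values was not tested.

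Of 19 T and NK cell markers 6 were tested: CD3D, CD8B, CD2, PRF1, CCL5 and PTPRC, the last of which is not confined to these cells. Their means were low, from 5.14 to 6.27. The median medium-minus-control difference was -0.06, and none had an unadjusted p under 0.05. CD3E, CD3G, CD8A, CD4 and KLRK1 had means of 4.80 or less and did not reach the filter. The 6 averaged between 5.47 and 6.20 per array in control, between 5.43 and 5.90 in medium-dose and between 5.47 and 5.90 in high-dose piglets. Their mean correlated with SLA-3 at 0.73, with SLA-2 at 0.67, with B2M at 0.64 and with TAP1 at 0.44. For SLA-3 the r was 0.17 within S2, 0.26 within S3 and 0.89 within S4, and 0.53 without the 2 arrays farthest from the median. The relation thus did not hold within S2 or S3. The mean of 11 endothelial markers correlated with the 4 genes at 0.09 to 0.24, with adjusted permutation p of 0.17 to 0.62. Of these 11, 5 medium-minus-control differences lay below 0 (median 0.06), against 49.7% of all tested probe sets. An unadjusted limma p under 0.05 was reached by CD93 and NOSTRIN, against 6.93%. CD93 had 0.40 ± 0.09 (p = 0.00017) and NOSTRIN -0.47 ± 0.11 (SE, p = 0.00023), each with an adjusted limma p of 0.407. Such opposite differences can cancel in the mean.

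Markers of further brain cells were examined in the same way. All 7 oligodendrocyte markers lay below 0 in medium-dose piglets against controls (median -0.16), against 49.7% of all tested probe sets. The myelin enzyme CNP had -0.58 ± 0.21 (SE), with an unadjusted p of 0.0078 and an adjusted limma p of 0.594. Their mean per array ran from 10.89 to 12.00 in control, from 10.87 to 11.33 in medium-dose and from 10.83 to 12.17 in high-dose piglets. All 6 astrocyte markers lay below 0 as well (median -0.07), and the gap junction gene GJA1 had -0.22 ± 0.08 (SE), with an unadjusted p of 0.013 and an adjusted limma p of 0.616. Of 6 hippocampal and neuronal markers none lay below 0 (median 0.08). None of these marker genes passed the threshold between feeding groups or over set codes. Of 9 class II genes 8 lay below 0 in the same contrast (median -0.17). Of 4 choroid plexus markers 2 did, and of 2 red blood cell genes 1 did. Over set codes, 1 of 8 microglia markers passed, CTSS (adjusted limma p = 0.0407), against 2.62% of all tested probe sets. So did 1 of 11 endothelial markers, CD93 (0.0271), and 1 of 9 class II genes, SLA-DQA1 (0.0369). Of the 9 class II genes 7 had an unadjusted p under 0.05 in that F test, against 17.4%. No T and NK cell, choroid plexus or red blood cell gene passed it. The part of these cells in the class I values was not tested.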

How the data were processed

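RNA of whole hippocampus was labelled and hybridised to Affymetrix porcine arrays, 1 per sample. Per the submitters' processing notes, the authors used RMA and Affymetrix Expression Console 1.1. The deposited values are on the log2 scale, 1 per probe set and array, with 1 decimal. RMA corrects background, normalises arrays to each other and summarises probes, which compresses differences of dim probe sets. Precision is limited by the number of arrays, and no raw intensities were used. The platform annotation gave exactly 1 symbol to 10069 of 23999 probe sets, several to 198 and none to 13732; 124 array controls were left out. Group and set code were taken from the sample labels.

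Differences were fitted in R 4.3.3 with limma 3.58.1 (feeding group plus set code as a fixed block, eBayes, two-sided) over 18006 probe sets with a mean at or above the 25th percentile, with Benjamini-Hochberg adjustment and a threshold of 0.05. The model was tested on simulated data. F tests covered set codes and their interaction with feeding group. Relations across arrays used two-sided permutation tests with 100000 resamples (scipy 1.17.1). The brightest probe set of a gene is the one with the highest mean. Named were all probe sets of the members, up to 4 genes with the smallest p of each further class I list, and the 5 genes most correlated with each member; members and lists were chosen with earlier results of these data known. Alternatives tried were other blocks, filters, normalisations, weights and eBayes settings, 1 probe set per gene, 2 groups alone, and leaving out set codes or single arrays; a Dap block, arrays with Dap only and leaving out the 3 arrays of lowest correlation were added after seeing the data. Probe and protein sequences were not used here.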

Additional observations from a re-analysis of the deposited data

Results flagged for a closer look

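Each probe set was examined for a single array far from the others of its set code. This gave 9 such values in 70 groups of 4 to 10 arrays, where chance gives about 1 in 20 for unrounded values. The values here have 1 decimal and some of the probe sets rise and fall together, so 9 in 70 cannot be set against that rate. For B2M, Ssc.12348.1.S1_at stood low in S1 at 11.9 in high-dose replicate 1, where the other 3 arrays had 12.3. Ssc.5896.1.S1_at stood low in S4 at 12.0 and Ssc.8925.1.S1_at at 10.7, both in control replicate 8. Ssc.8925.1.S1_at had 7.4 in high-dose replicate 12 of S5, with the nearest array at 10.8. Ssc.12809.5.A1_at had 10.7 in medium-dose replicate 1 of S2, and Ssc.17269.1.S1_at had 7.9 in high-dose replicate 2 of S1, with the nearest at 8.6.

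SLA-2 stood high at 10.7 in high-dose replicate 12 of S5, with the nearest array at 10.2. For TAP1, Ssc.23546.1.S1_at had 6.3 in medium-dose replicate 9 of S4 and Ssc.23546.2.A1_at had 5.1 in medium-dose replicate 7 of S3. The interaction of feeding with set code passed for 1 probe set, Ssc.8925.1.S1_at, annotated to B2M, with an adjusted limma p of 0.03607. It involves a combination of high dose and S5 that holds 1 array, high-dose replicate 12 at 7.4. Without S5 the F was 1.59 (adjusted limma p = 0.703), and the call was lost in 18 of the 35 fits that each left out 1 array. It is therefore not shown that feeding acted differently by set code.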

How the results depend on the processing

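No probe set of the 4 genes passed between feeding groups under any of the 21 alternatives in which it was tested or the 36 fits that each left out 1 array (lowest to highest count 0 to 0). With 1 probe set per gene 4 were tested, and the filter at the 50th percentile left out both dimmer TAP1 probe sets. Over all tested probe sets, medium minus control gave 11 calls with the 2 groups alone, 4 without S1 and 0 to 1 when 1 array was left out; high minus medium gave 1 with array weights and 0 to 1 when 1 array was left out. The medium-minus-control difference of the brightest probe sets stayed below 0 under all of them, from -0.61 to -0.31 for B2M, -0.57 to -0.31 for SLA-2, -0.71 to -0.22 for SLA-3 and -0.49 to -0.20 for TAP1, over the 21 alternatives. The set-code count of 6 was 4 to 6 when 1 array was left out, 3 with 1 probe set per gene (of 4 tested), 3 without the 3 arrays of lowest correlation, 1 without S1, and 0 without S3, with the Dap-positive arrays alone and with the replicate block and set block together. The interaction count of 1 was 0 with quantile normalisation, robust trended eBayes, 1 probe set per gene, the Dap block and without S2, S4 or S5, and 0 to 1 when 1 array was left out; it could not be fitted without high-dose replicate 12. The causes were not tested.

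Replicate numbers recur in each group. Same-numbered samples deviated together in few pairs (a correlation over 0.1 in 2 of 12 for medium and control, 4 of 12 for high and control and 2 of 12 for high and medium), so the numbers were not treated as pairs. The replicate block, used instead of the set code, gave -0.46 for B2M in medium minus control (adjusted limma p = 0.535), and the replicate block with the set block gave -0.50 (0.731).

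Differences that changed sign were all without a call. For high minus control, SLA-2 was 0.0004 with array weights and -0.1421 to 0.0028 with 1 array left out, and SLA-3 was 0.0618 without S4 and -0.1795 to 0.0322 with 1 array left out. In the same contrast Ssc.12348.2.S1_at was 0.0306 without S4 (-0.1815 to 0.0157 with 1 array left out), Ssc.8925.1.S1_at was 0.0981 without S5 and 0.0870 on the Dap-positive arrays (-0.4334 to 0.0609), Ssc.7768.1.A1_at was -0.0085 without S2, and Ssc.12809.5.A1_at was -0.0036 without S4 and -0.0681 on the Dap-positive arrays. Ssc.5896.1.S1_at was -0.0077 with the replicate block and set block and -0.0181 on the Dap-positive arrays, and Ssc.12809.4.S1_a_at was 0.0064 with both blocks, 0.0019 without S3 and 0.0001 on the Dap-positive arrays. For high minus medium, Ssc.7768.1.A1_at was 0.0083 with no set block, 0.0083 with the replicate block in its place, 0.0058 with a random set block and 0.0912 without S4 (-0.0382 to 0.0283 with 1 array left out). Ssc.12809.4.S1_a_at was 0.1071 with both blocks and 0.0580 without S3 (-0.1091 to 0.0143), Ssc.12809.5.A1_at was 0.0534 without S3 (-0.0577 to 0.0030), and TAP1 Ssc.27863.1.S1_at was -0.0401 without S4. On the Dap-positive arrays Ssc.8925.1.S1_at was 0.0182 and Ssc.17269.1.S1_at 0.0311. For medium minus control, without S4 Ssc.19916.2.S1_a_at was 0.0329 (-0.0377 to 0.0028 with 1 array left out) and TAP1 Ssc.23546.1.S1_at 0.0518 (-0.0700 to 0.0130). Ssc.12809.5.A1_at was -0.0025 without S3, and on the Dap-positive arrays it was -0.0319, Ssc.12809.4.S1_a_at 0.0897 and Ssc.23546.2.A1_at -0.0004.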
